A study of Mus musculus with 6 samples.

Results

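The heat shock and DnaJ chaperone genes were taken as every gene whose only annotated symbol starts with Hspa, Hspb, Hspd, Hspe, Hsph, Hsp90 or Dnaj, with 1 probe set per gene, the brightest by mean log2 signal over the 6 arrays. The rule gave 72 of the 18193 genes on the array, covered by 174 probe sets. By family they were 14 HSP70 and HSP110 genes, 2 HSP90 genes, 8 small heat shock protein genes, 2 chaperonin genes (Hspd1 and Hspe1), the DnaJ genes (4 of class A, 13 of class B and 27 of class C) and the binding-protein genes Hspbp1 and Hspbap1, which the symbol rule also takes in.

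Chaperones bind unfolded or partly folded proteins and keep them from clumping. HSP70 proteins do so in cycles of ATP hydrolysis that DnaJ proteins (also called HSP40) start, HSP110 proteins such as Hsph1 exchange the nucleotide, HSP90 takes over late folding steps, small heat shock proteins hold unfolded protein without ATP, and Hspd1 with its lid Hspe1 form the folding cage of mitochondria. Some members, such as Hspa8, are made in nearly all cells, while others, such as Hspa1a and Hspa1b, are switched on by heat and other stress through heat shock factors. Hspa5, Hsp90b1 and several DnaJ proteins serve the endoplasmic reticulum (ER) and are switched on when unfolded protein builds up there.

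The series measured mouse forelimb buds of strain CD1 at E10.5, cut into a proximal and a distal part, on 1 Affymetrix array per part and condition, 6 arrays in all. The control buds carried the genotype Ring1A-/-, although their description calls them WT. The dKO buds carried Prx1-Cre, Ring1A-/- and Ring1Bfl/fl, so by their labels they share the Ring1A deletion with the controls and also lose Ring1B where Prx1-Cre acts, a driver known to act in limb mesenchyme rather than in the ectoderm, vessels, nerves or muscle precursors of the bud. RING1A and RING1B are the ubiquitin ligases of Polycomb repressive complex 1. The signals of their genes did not follow the labels. Rnf2 (Ring1B) had 2042 and 2070 on the control arrays, 2147 and 1887 on those labelled dKO and 1941 and 2085 with RA, and Ring1 (Ring1A) had 624.3 and 967.8, 401.7 and 578.3, and 419.8 and 245.2 on the same pairs. Whether these probe sets lie in the deleted parts is not known here, so they do not check the labels, and control, dKO and RA below stand for the arrays so labelled. The RA buds were WT and came from mothers given all-trans retinoic acid by mouth, 100 mg/kg at E10.25. RA buds therefore differ from the controls in treatment, in Ring1A genotype and, by the sex-linked genes given below, in sex. These cannot be told apart. How many embryos were pooled per array is not stated in any source used here.

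Values are MAS5 signals, a brightness on a linear scale. A signal under the array's median over all probe sets (59.5 to 76.1, the floor) was set to that median, and a fold against such a value is a lower bound, written "at least". With 1 array per group a difference between 2 arrays has no replicate check and no p-value, and the number of arrays limits the precision throughout. Two-array differences were therefore counted at 2-fold, a log2 difference of 1, beside the share of all measured genes past the same fold. An additive limma fit over the 6 arrays, with condition and part as terms, gave the only tests. Its residual, with 2 degrees of freedom, measures how far an effect disagreed from one pair of arrays to the next, and not the spread between replicates.

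The RA arrays stood apart from the other 4. Their BioB spike-in signal (3' probe set) was 84.4 and 103, against 1105 to 1223 elsewhere. The other spike-ins differed less. BioC had 1094 and 1545 against 1799 to 1877, BioD 5920 and 6287 against 6317 to 7115, and Cre 12410 and 14100 against 12670 to 14280. Xist was at 12.9 and 29.5 against 3017 to 3688, and the Y-linked Eif2s3y at 2783 and 3064 against at most 12.3. By these sex-linked genes the RA arrays read as male and the other 4 as female. The proximal RA array had the lowest correlation with the others across genes (r = 0.906 to 0.932, against 0.948 to 0.984 for all other pairs), the highest 3'/5' ratios for GAPDH (1.60) and actin (1.95) and the highest maximum signal (26460, others at most 16620). The limb mesenchyme markers Prrx1, Prrx2, Tbx5, Msx1, Twist1 and Lhx2 were all above the floor, with a summed signal of 14900 to 16700 on the arrays without RA, 14280 on the distal RA array and 11240 on the proximal RA array. Most RA results are therefore given for both parts. Those given for the proximal part alone rest on the proximal RA array. The bearing of these array features on the RA results was not tested. In whole tissue, fewer cells of a type and less RNA per cell cannot be told apart.

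Of the 72 genes, 60 were above the floor on at least 1 array and 56 on all 6. Among all genes these numbers were 12147 and 10207. The 12 that never passed it were Hspa1a, Hspa1l, Hspb2, Hspb3, Hspb7, Hspb9, Dnajb7, Dnajb8, Dnajb13, Dnajc5b, Dnajc5g and Dnajc6. Hspb2, Hspb3 and Hspb7 are small heat shock proteins known from muscle, and 4 of the 8 genes of that family were measured. At the edge of the floor lay Dnajb3, above it on 1 array with signals of 59.5 to 80.9, and Dnajc6, below it on every array with signals of 17.9 to 75.2.

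Promoter sequence is shown for Hspa1b and Hspa12a, the genes that limma called, and for Hspb1, Hsp90b1, Dnaja4 and the neighbours Hspe1 and Hspd1, which were picked because their windows hold a stress element. Hspb8, Dnajb9, Hspa4l, Dnajc14 and Hspa2 ranged more widely over the arrays than Hspb1 or Hsp90b1, and none of the motifs searched is in their windows, which are not printed. Sequences are RefSeq's for mouse build GRCm38.p6, the 250 bases before an annotated start, 5′ to 3′ on the gene's strand, and capitals mark a motif match. RefSeq windows were found for 59 of the 72 genes, 76 windows in all. A heat shock element was searched as a pair of facing units, GAANNTTC or TTCNNGAA, which are the same on both strands, and as 3 units in a row, GAANNTTCNNGAA or TTCNNGAANNTTC, which contain the pair. The ER stress element was searched as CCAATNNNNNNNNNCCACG and on the other strand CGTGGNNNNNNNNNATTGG. Hspa1b, the stress-inducible HSP70, lies on chr17:34959239-34959488, minus strand. Its window holds 1 pair, 104 bases before the start. Hspb1, a small heat shock protein, holds 2 pairs in chr5:135887669-135887918, plus strand. Hspa12a, a distant HSP70 relative, holds none in chr19:58943673-58943922, minus strand, or in its other window. Hsp90b1, the HSP90 of the ER, holds 2 ER stress elements in chr10:86705445-86705694, minus strand, 212 and 107 bases before the start.
Hspa1b: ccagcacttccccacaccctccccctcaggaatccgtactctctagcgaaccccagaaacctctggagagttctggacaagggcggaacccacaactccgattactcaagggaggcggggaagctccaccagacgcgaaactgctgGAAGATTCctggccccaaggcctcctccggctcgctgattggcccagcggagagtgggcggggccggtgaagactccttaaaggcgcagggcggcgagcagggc
Hspb1: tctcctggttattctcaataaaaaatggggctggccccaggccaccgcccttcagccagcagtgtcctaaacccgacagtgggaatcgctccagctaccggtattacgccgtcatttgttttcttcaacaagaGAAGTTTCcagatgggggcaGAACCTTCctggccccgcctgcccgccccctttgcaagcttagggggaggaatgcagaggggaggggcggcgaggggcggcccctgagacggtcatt
Hspa12a: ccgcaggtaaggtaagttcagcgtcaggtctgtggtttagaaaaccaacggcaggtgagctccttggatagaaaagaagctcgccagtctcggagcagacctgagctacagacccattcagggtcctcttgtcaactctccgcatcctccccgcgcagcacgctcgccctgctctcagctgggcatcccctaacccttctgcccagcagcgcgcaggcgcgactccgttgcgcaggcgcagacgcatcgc
Hsp90b1: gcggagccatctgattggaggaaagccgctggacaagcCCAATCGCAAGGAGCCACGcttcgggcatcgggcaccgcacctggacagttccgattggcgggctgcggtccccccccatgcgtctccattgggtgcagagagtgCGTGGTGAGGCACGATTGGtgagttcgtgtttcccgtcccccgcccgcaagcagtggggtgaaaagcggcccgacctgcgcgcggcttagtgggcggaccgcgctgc

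Shorter stretches of 30 bases show the matches of 2 further promoters. Dnaja4, a DnaJ partner of HSP70, has 2 pairs, in chr9:54699458-54699487 and chr9:54699496-54699525, plus strand, at 90 and 52 bases before the start. Hspe1 and Hspd1 are neighbours read from opposite strands of chromosome 1, and both their windows hold the same run of matches, shown on the plus strand as chr1:55088053-55088082.
Dnaja4 at 90 bases: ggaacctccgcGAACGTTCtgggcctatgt
Dnaja4 at 52 bases: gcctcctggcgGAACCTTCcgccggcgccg
Hspe1: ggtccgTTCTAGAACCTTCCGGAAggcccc

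The pair was found in 16 of the 76 chaperone windows (21.1%), from 14 genes, and in 12.8% of all 32851 windows. The run of 3 units was found in 4 windows (5.26%; Dnajb6, Hspd1 and Hspe1) against 0.466% of all windows. These 4 windows cover 2 places in the genome, since the 2 overlapping Dnajb6 windows hold 1 site and those of Hspd1 and Hspe1 share theirs. The ER stress element was found in 3 windows (3.95%), those of Hsp90b1, Hspa5 and Dnajc3, against 0.113%. Chaperone windows also held more CG dinucleotides, with a median of 19 against 6. A match describes letters and does not show that a factor binds there.

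Few of the chaperone genes differed 2-fold in any comparison, and most shares were within a few percentage points of those of all genes. A gene counts as measured in a comparison when it was above the floor on either of its arrays. In the control buds 1 of 60 measured members was 2-fold lower proximally (Hspb1, just past the threshold; 1.4% of all genes were) and 0 were higher (1.35%). In the dKO buds 0 of 59 were 2-fold higher or lower proximally (0.515% and 0.722% of all genes). In the RA buds 2 of 57 were 2-fold higher proximally, Dnajc28 and Dnajc4 (4.4% of all genes), and 3 were lower, Dnajb9, Dnajc14 and Hsp90b1 (6.16%). In dKO against control 3 of 59 were 2-fold higher in the proximal part, Hspa12a, Dnaja4 and Hspa4l (4.07% of all genes), and 2 of 60 in the distal part, Hspa12a and Dnaja4 (5.32%). No member was 2-fold lower in dKO in either part (0.363% and 0.524% of all genes). In RA against control 5 of 59 were 2-fold lower in the proximal part, Hspa1b, Dnajb9, Dnajc14, Hsp90b1 and Hspb8 (6.8% of all genes), and 3 of 59 in the distal part, Hspa1b, Hspa12b and Hspb6 (2.13%). No member was 2-fold higher with RA, against 3.69% of all genes proximally and 2.16% distally.

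**Figure D1:**
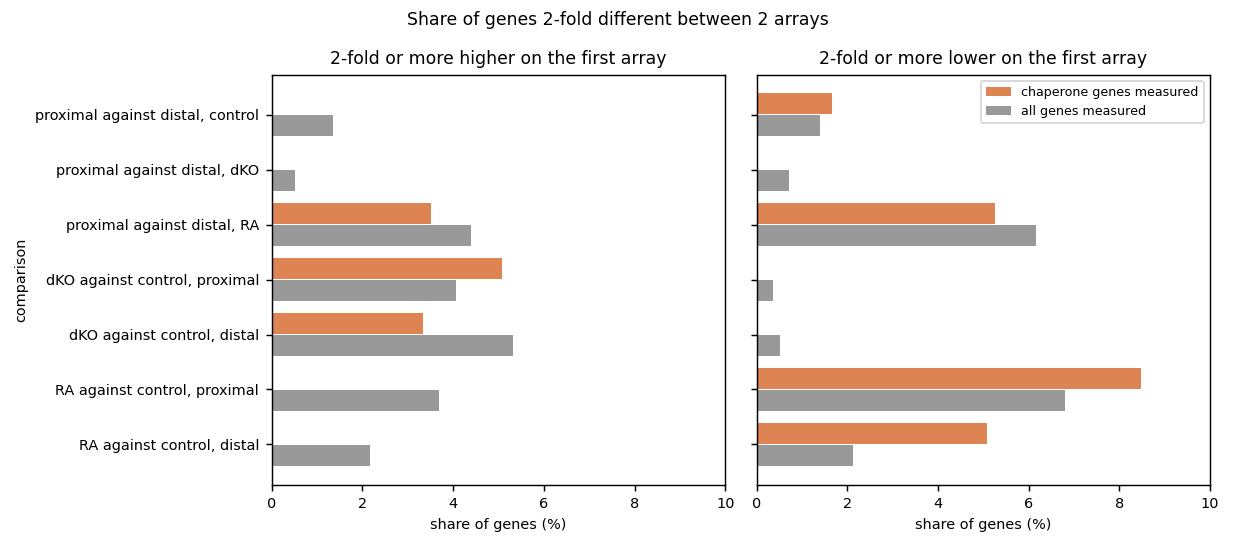
Share of genes 2-fold or more higher (left) or lower (right) on the first-named array of each of the 7 two-array comparisons, in percent of the genes that passed the floor on either array; orange bars are the chaperone genes and grey bars all genes. The longest orange bar is 8.47%, for 5 of 59 members lower in proximal RA, beside 6.8% of all genes.

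The additive limma fit called 2 of the 60 members at a Benjamini-Hochberg adjusted p under 0.05, taken over all 12147 genes tested. Hspa1b fell with RA and Hspa12a rose in dKO. For the RA effect 0.543% of all genes were called, for the dKO effect 2.33%, and for the proximal-distal effect 0%, with 0 members called. At an unadjusted p under 0.05 the same fit passed 2 members for position (3.33%, against 9.52% of all genes, 1156 genes), 6 for dKO (10% against 11.6%) and 13 for RA (21.7% against 16.7%). Over the 56 members above the floor everywhere, the range across the 6 arrays had a median of 0.57 on the log2 scale, and 13 (23.2%) ranged over more than 1. Over all genes the median range was 0.69 and 25.8% exceeded 1.

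**Figure D2:**
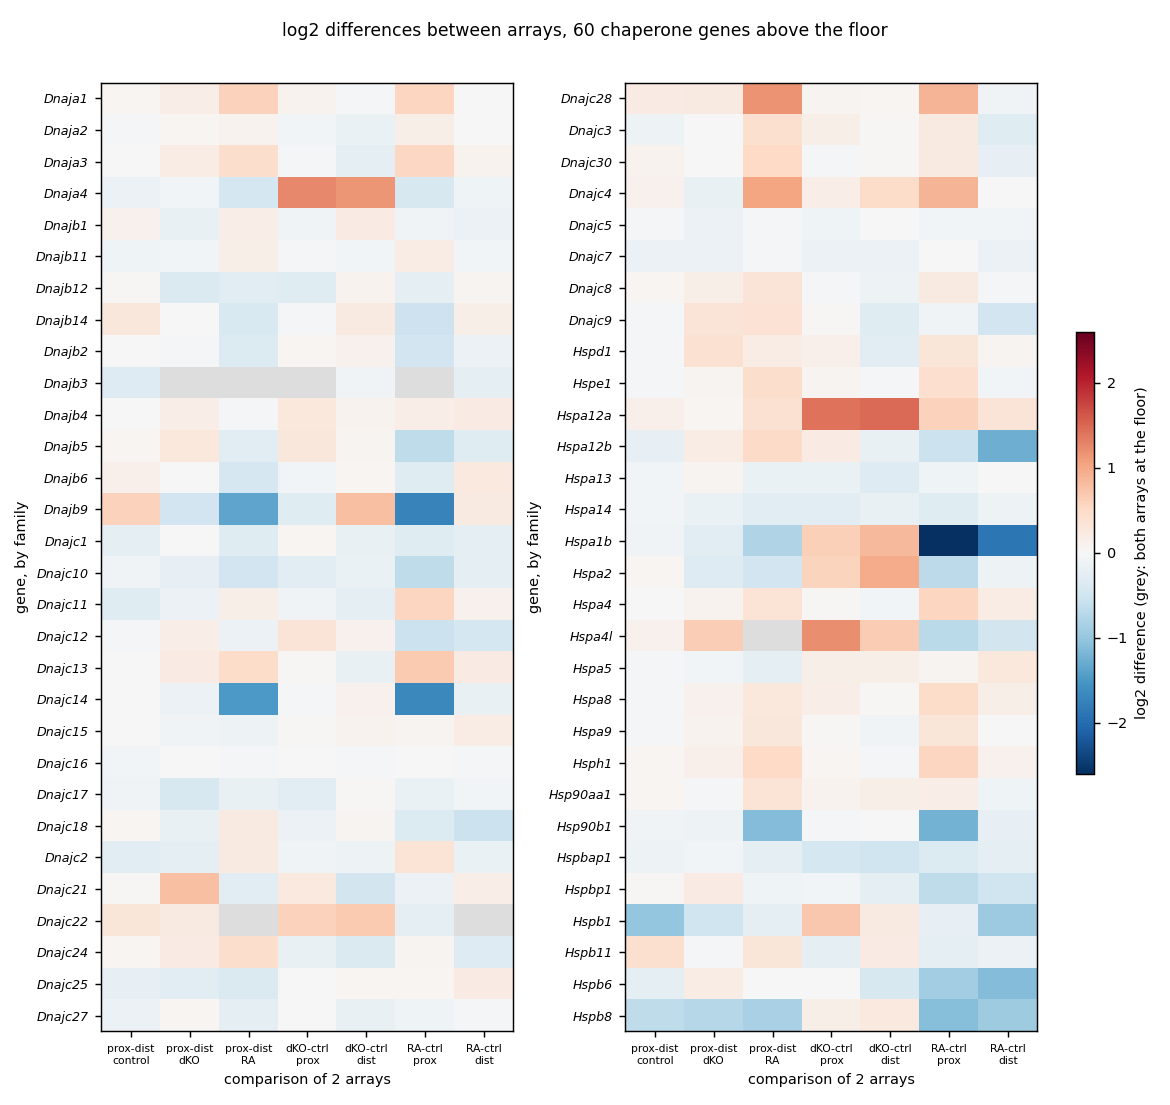
Log2 differences between 2 arrays for the 60 measured chaperone genes (rows, grouped by family) in the 7 comparisons (columns); red is higher and blue lower on the first array, and grey marks genes at the floor on both. Most cells are pale, and the darkest are Hspa1b in RA against control (-2.59 proximal, -1.88 distal).

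Hspa1b, the stress-inducible HSP70, gave signals of 1305 (proximal) and 1381 (distal) in control buds, 2002 and 2467 in the dKO, and 217 and 375.5 with RA. The RA arrays were the lowest and the dKO arrays the highest, and the 3 conditions did not overlap. RA against control was 6.01-fold lower in the proximal part (log2 -2.59) and 3.68-fold lower in the distal part (-1.88). In the limma fit Hspa1b fell by 2.23 on the log2 scale with RA (SE 0.22, adjusted p = 0.0167, lower in both parts). The dKO arrays were 1.53-fold (log2 0.62) and 1.79-fold (0.84) above their controls, which the limma fit did not call (0.73, SE 0.22, adjusted p = 0.214). Without both RA arrays limma did call it (0.73, adjusted p = 0.00172), with 1 residual degree of freedom, and over all 14 alternatives the adjusted p ran from 0.000624 to 0.999. RA and dKO were set against the same control arrays, so the directions of the 2 effects are not independent of each other.

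The level rests on 1 of the 3 Hspa1b probe sets. The other sets gave signals of 8.45 to 70.4, below the floor on every array, and of 64.2 to 74.5 without RA but 11.9 and 23.3 with it. The RA arrays were thus also the lowest in both dim sets, in deposited signals that lie near or under the floor. When the log2 values of the 3 sets were averaged, the RA difference was -0.72 and limma no longer called it (adjusted p = 0.126). After quantile normalization it was -2.12 (adjusted p = 0.0531). Limma called it under 12 of 14 alternatives, with adjusted p from 6.26e-22 to 0.126. Hspa1a, a near-identical copy of Hspa1b, had signals of 25.7 and 43.6 in control buds, 58.7 and 73.1 in the dKO, and 8.49 and 8.62 with RA, all below the floor. In the 250 bases before the start the copies share 247 bases. Signal of one copy can come from the other, so the values are those of the Hspa1b probe set and not of 1 gene for certain.

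Among the 10206 other genes above the floor on all 6 arrays, those whose log2 signals ran closest to Hspa1b over the 6 arrays were Sat2 (Pearson r = 0.997), Inava (0.995), Nkd1 (0.993), Rnf19a (0.992) and Churc1 (0.992). Sat2 had 524.7 and 495.5 in control buds, 654.9 and 693.3 in the dKO, and 145.1 and 217.8 with RA. The nearest chaperone gene was Dnajb2 (r = 0.941), at rank 260, with 674.8 to 1020 on the arrays. The 6 points share their arrays with every other gene, and r is given as a description.

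Hspa12a encodes a distant HSP70 relative. Its signals were 133.4 proximally and 122.1 distally in control buds, 353.7 and 339.3 in the dKO, and 203.1 and 154.7 with RA. The dKO arrays were the highest and did not overlap the other 4. dKO was 2.65-fold higher in the proximal part (log2 1.41) and 2.78-fold higher in the distal part (1.47). In the limma fit Hspa12a rose by 1.44 in dKO (SE 0.23, adjusted p = 0.0327, higher in both parts). Its RA difference was 0.47 (SE 0.23, adjusted p = 0.351 in limma). The call in dKO was lost without the proximal control array (adjusted p = 0.0978), without the distal control array (0.0794) and without the distal dKO array (0.115), while the limma difference stayed between 1.34 and 1.49. It was also lost when each array was divided by its median (1.17, adjusted p = 0.134), after quantile normalization (1.29, 0.128), with the mean of the 4 probe sets, of which the other 3 were below the floor on every array (0.57, 0.0836), and among genes above the floor on all 6 arrays (1.44, 0.0926). Limma called it under 7 of 14 alternatives, with adjusted p from 0.000274 to 0.134.

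Some neuronal genes were also higher in dKO. Nefl and Nefm, the light and medium neurofilament chains, rose in dKO in limma (log2 2.05, adjusted p = 0.0276, and 1.60, adjusted p = 0.0151), whereas the neuronal tubulin Tubb3 was at 95.8 and 265.5 in control and 138.8 and 182.2 in dKO. Nefl had 220.1 and 142.9 in control buds and 709.1 and 761.5 in the dKO. The part of these genes in the Hspa12a and Dnaja4 values was not tested.

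Hspa4l, an HSP110-type nucleotide exchange factor best known from testis, had 103 and 95.6 in control buds, 237.4 and 152 in the dKO, and 57.4 and 46.7, below the floor, in RA. dKO was 2.31-fold higher proximally (log2 1.21) and 1.59-fold higher distally (0.67), and RA was at least 1.64-fold and at least 1.40-fold lower. Limma gave 0.94 for dKO (SE 0.24, adjusted p = 0.133). The 3 other measured probe sets gave proximal dKO differences of 0.73, 1.05 and 0.70.

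Hspa2, the HSP70 of spermatogenesis, had 243.2 and 233.7 in control buds, 363.1 and 457.2 in the dKO, and 151 and 214.3 with RA. The dKO arrays were the highest, by 0.58 proximally and 0.97 distally on the log2 scale, short of 2-fold. Limma gave 0.77 (SE 0.25, adjusted p = 0.262). Hspa12b, an HSP70 relative known from endothelium, had 679.7 and 782.9 in control buds, 785.6 and 687.5 in the dKO, and 460.2 and 325.9 with RA. It was 2.40-fold lower with RA distally (log2 -1.26) and 1.48-fold lower proximally (-0.56), which limma did not call (-0.91, SE 0.24, adjusted p = 0.174). The 6 endothelial markers summed to 2416 and 1816 in control and 3670 and 1981 in RA, with a median RA difference of 0.57 proximally and 0.12 distally. Proximally all 6 were above control, and distally 3 were above and 3 below, with Tek at 351.9 in control and 186.1 in RA and Cldn5 at 441.6 and 355.7. The part of the endothelial share in the Hspa12b values was not tested.

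**Figure D3:**
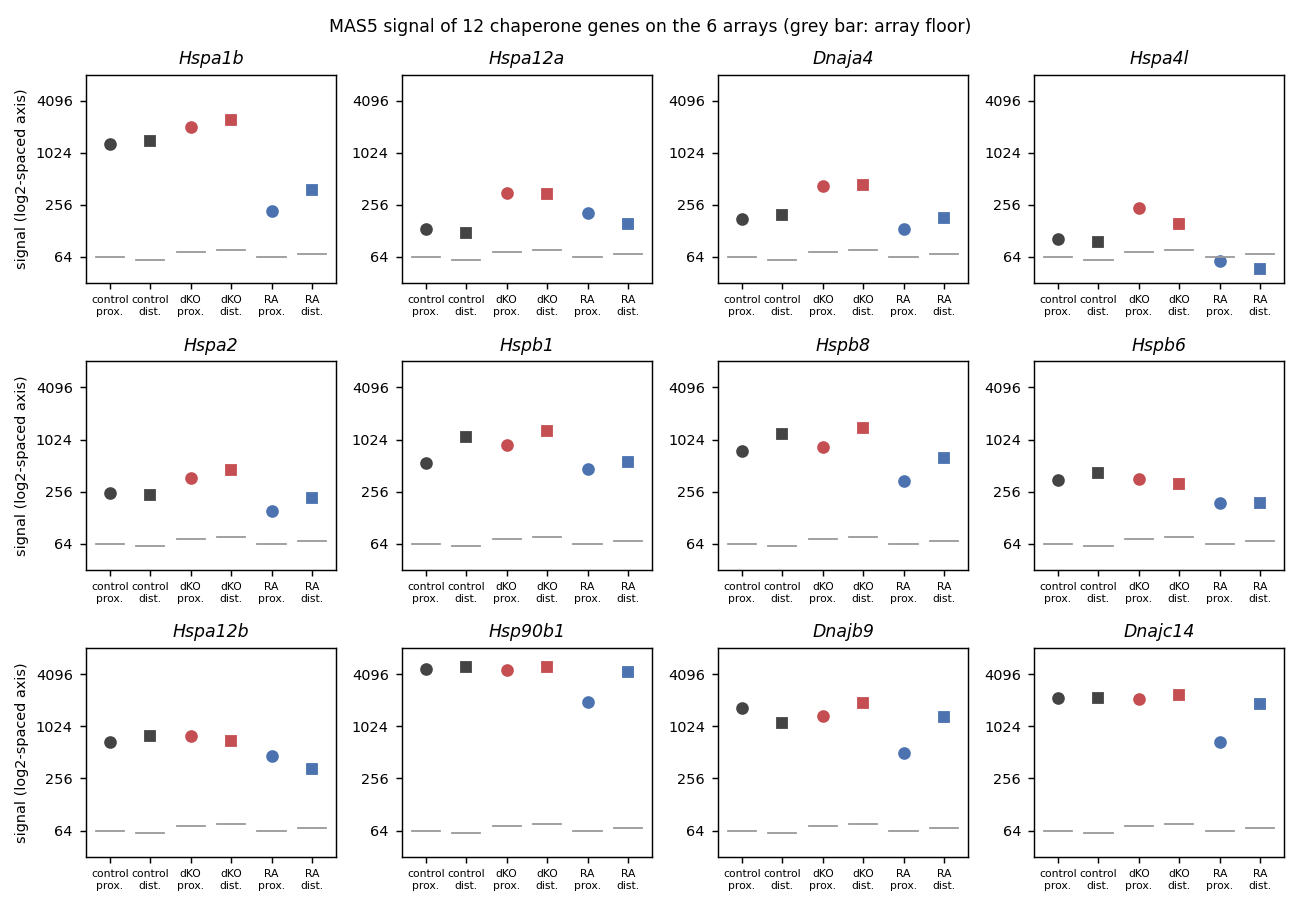
MAS5 signal (log2-spaced axis) of 12 chaperone genes on each of the 6 arrays; circles are proximal and squares distal arrays, black is control, red dKO and blue RA, and the grey bars are each array's floor. Hspa1b is highest on the dKO arrays (2002 and 2467) and lowest on the RA arrays (217 and 375.5), while Hsp90b1, Dnajb9 and Dnajc14 are low on the proximal RA array only.

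The HSP70 and HSP110 genes made in most cells were bright on every array. Hspa8, the cognate HSP70 of the cytosol, ranged from 10890 to 15120, Hspa5 (BiP, the HSP70 of the ER) from 7263 to 9032, and Hsph1 from 7035 to 11040. Hspa8 had 10890 and 11110 in control buds, 12260 and 11350 in the dKO, and 15120 and 12430 with RA, a log2 RA difference of 0.32 in limma (SE 0.15, adjusted p = 0.348). Hspa9, the mitochondrial HSP70, ranged from 6056 to 7875. In limma no member of this group other than Hspa1b and Hspa12a was called for any effect.

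Among the DnaJ proteins Dnaja4 differed most in dKO. Its signals were 177 and 196.5 in control buds, 418.8 and 438.3 in the dKO, and 132.3 and 181.7 with RA, and the dKO arrays did not overlap the others. dKO was 2.37-fold higher proximally (log2 1.24) and 2.23-fold higher distally (1.16). Limma gave 1.20 (SE 0.24, adjusted p = 0.0657), just short of a call, and 1.20 with adjusted p = 0.00302 without the RA arrays (0.000914 to 0.341 over 14 alternatives). A further probe set gave 194 and 200.2 in control and 444.2 and 516.4 in dKO, and the third at least 0.43 and at least 0.60 as log2 differences, since its control values were under the floor.

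The other class A members, which are the general HSP70 partners of the cytosol (Dnaja1 and Dnaja2) and of mitochondria (Dnaja3), did not come near 2-fold in dKO. Dnaja1 had 6872 and 6597 in control buds, 7306 and 6479 in the dKO, and 10050 and 6638 with RA. The proximal RA array was the highest in this probe set and the lowest in another, which had 5712 in proximal control and 2236 in proximal RA. With the mean of the 3 Dnaja1 sets the proximal RA difference turned from 0.55 to -0.31. In class B, Dnajb1, an HSP70 partner that heat induces, ranged from 3347 to 4293, Dnajb6 from 4177 to 5671, and Dnajb11 of the ER from 1496 to 1737, each by less than 0.45 on the log2 scale over the 6 arrays. In class C, Dnajc15 ranged from 5001 to 5796, Dnajc2, which works at the ribosome, from 4696 to 6354, and Dnajc8 from 3765 to 5075.

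Dnajb9 (ERdj4), an ER DnaJ protein induced by unfolded protein, had 1689 and 1112 in control buds, 1356 and 1916 in the dKO, and 505.5 and 1303 with RA. The proximal RA array was the lowest, 3.34-fold under the proximal control (log2 -1.74), while the distal RA array was 1.17-fold above the distal control (0.23). Dnajc14 had 2154 and 2165 in control buds, 2096 and 2335 in the dKO, and 672.5 and 1881 with RA, 3.20-fold lower proximally (log2 -1.68) and -0.20 distally. Its other probe sets split, with 181.9 in proximal control and 42.2 in proximal RA in one, and 249.1 and 274.9 in the other. Dnajc4 had 391.3 and 359.9 in control and 726 and 355.3 in RA, and Dnajc28 275.5 and 238.6 in control and 510.4 and 225.5 in RA. Both were 1.85-fold higher on the proximal RA array than on the proximal control and not on the distal one. Limma called none of these 4 for RA, and each lay apart on the proximal RA array alone.

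Of the HSP90 genes, Hsp90aa1, the inducible cytosolic form, ranged from 7479 to 9510 with limma differences of 0.12 for dKO and 0.03 for RA. Another Hsp90aa1 probe set had 9249 and 8643 in control and 4643 and 8901 in RA, low on the proximal RA array. The mean of the 5 sets gave -0.15 there, against 0.18 in the set used. Hsp90b1 (GRP94) had 4671 and 4984 in control buds, 4556 and 5018 in the dKO, and 1980 and 4320 with RA. It was 2.36-fold lower on the proximal RA array than on the proximal control (log2 -1.24) and -0.21 distally. Its other probe set gave 3985 and 3710 in control and 2582 and 3123 in RA, a proximal difference of -0.63. Limma did not call the RA effect (-0.72, SE 0.26, adjusted p = 0.268). The other genes with an ER stress element in their window gave values that depended on the probe set. Hspa5 had 7263 in proximal control and 7626 in proximal RA in the set used, and 5606 and 12050 in another. Dnajc3 had 1301 and 1539 in the set used, and 1432 and 638.1 in another, with -0.51 as the proximal log2 difference for the mean of its 5 sets.

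Of the 4 measured genes with an Hspb symbol limma called none for RA. Hspb1, Hspb6 and Hspb8 had lower signals on both RA arrays than on their controls. The median RA difference of the 4 was -0.57 proximally and -0.94 distally, beside 0.01 and -0.04 for all genes. Hspb8, which works with the cochaperone Bag3, had 745 proximally and 1178 distally in control buds, 832.6 and 1400 in the dKO, and 343.7 and 620.4 with RA. RA was 2.17-fold lower proximally (log2 -1.12) and 1.90-fold lower distally (-0.93). Limma gave -1.02 (SE 0.19, adjusted p = 0.0802), not a call. Its 2 dimmer probe sets, with signals of 20.3 to 122, gave proximal RA differences of 0.11 and at least 0.26, and the mean of the 3 sets gave -0.25.

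Hspb6 (HSP20) had 352.5 and 419 in control buds, 356.7 and 312.9 in the dKO, and 189.6 and 190.9 with RA. It was 1.86-fold lower proximally and 2.20-fold lower distally with RA, and limma did not call it (-1.01, SE 0.25, adjusted p = 0.149). Hspb1 (HSP25), an actin-linked small heat shock protein, had 543.8 and 1089 in control buds, 889.1 and 1271 in the dKO, and 471.8 and 563.7 with RA. Its RA difference was -0.21 proximally and -0.95 distally (limma -0.58, SE 0.24, adjusted p = 0.294). Hspb11, which is an intraflagellar transport protein despite its symbol, ranged from 374 to 552.1, with RA differences of -0.24 proximally and -0.15 distally (0.03 distally with the mean of its probe sets).

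**Figure D4:**
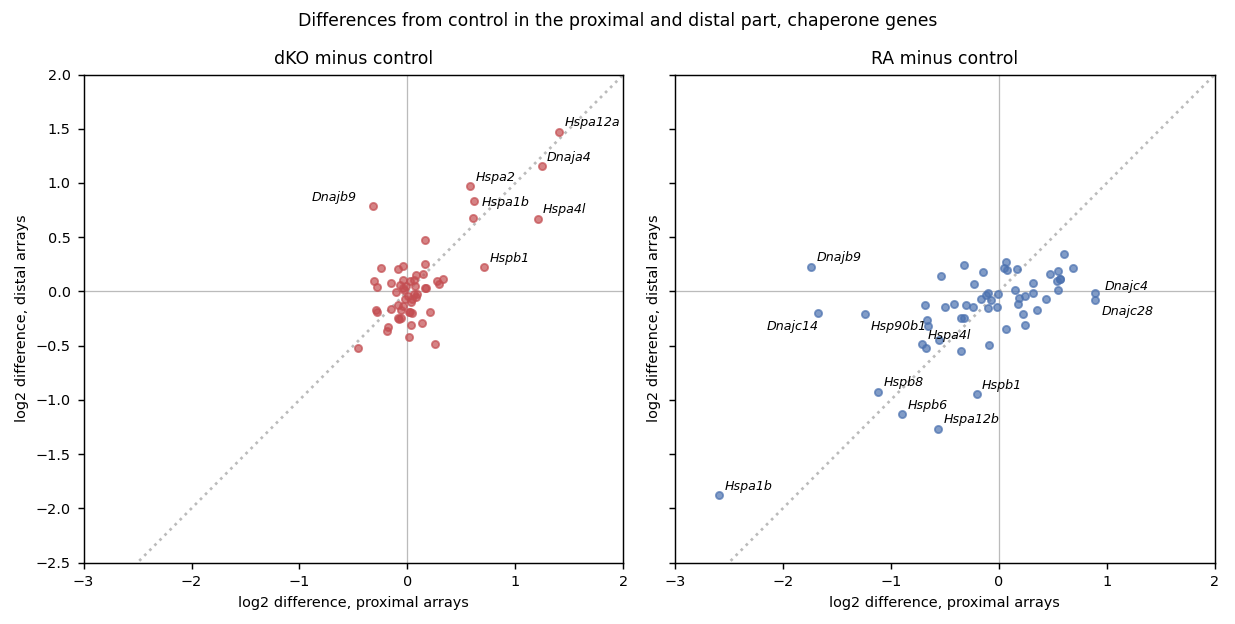
Log2 differences from control of the chaperone genes in the proximal arrays (horizontal) against the distal arrays (vertical), for dKO (left, red) and RA (right, blue); the dotted line marks equal differences, and genes with a difference of 0.7 or more in size in either part are named. Hspa1b lies far below 0 in both parts with RA (-2.59 and -1.88), while Dnajb9, Dnajc14 and Hsp90b1 are displaced along the proximal axis alone.

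Hspb1 and Hspb8 were the members with the clearest proximal-distal difference. In the probe set used, Hspb8 was lower proximally in all 3 conditions, with differences of -0.66 (control), -0.75 (dKO) and -0.85 (RA) on the log2 scale. The dimmer Hspb8 sets, near or under the floor, had lower deposited signals proximally in control and dKO but not in RA. In RA they had 73.0 proximally and 69.2 distally, and 76.6 and 20.3. Hspb1 was 2.002-fold lower proximally in control (-1.001), with -0.52 in dKO and -0.26 in RA. Its other probe set gave 301 and 550.3 in control (-0.87). Limma over 6 arrays called neither (Hspb8 -0.75, SE 0.15, adjusted p = 0.193; Hspb1 -0.59, SE 0.19, adjusted p = 0.416). Without both RA arrays it called both, Hspb8 at -0.705 (adjusted p = 0.0148) and Hspb1 at -0.76 (adjusted p = 0.0242), and the call of each also came with either RA array alone left out. Over 16 alternatives the adjusted p ran from 0.00305 to 0.441 for Hspb8 and from 0.00777 to 0.661 for Hspb1.

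Surface ectoderm markers ran the same way in control and in dKO. All 6 of Krt5, Krt8, Krt14, Krt18, Epcam and Cdh1 were above the floor, and all 6 were lower proximally in these 2 conditions. In RA 3 were lower and 3 higher proximally. Their summed signal was 5974 proximally and 10830 distally in control buds, 7216 and 10560 in the dKO, and 5553 and 7141 with RA, with a median proximal-distal difference of -0.87, -0.86 and -0.23. Their median RA difference was -0.20 proximally and -0.76 distally. The part of the ectoderm share in the Hspb1 and Hspb8 values was not tested.

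Hspd1 (HSP60) had 6747 and 6922 in control buds, 7432 and 5643 in the dKO, and 8392 and 7314 with RA. Hspe1 (HSP10) had 8963 and 9298 in control buds, 9468 and 8961 in the dKO, and 12150 and 8872 with RA. Neither passed the limma test for any effect, and in the deposited scaling both were higher on the proximal RA array than on the others. Of the binding proteins, Hspbp1, a nucleotide exchange factor of HSP70, had 1450 and 1410 in control buds, 1377 and 1184 in the dKO, and 910.9 and 980.7 with RA, lower on both RA arrays than on the other 4 (limma -0.60, SE 0.17, adjusted p = 0.198). Hspbap1 had 406.3 and 425.9 in dKO against 558.2 and 612.2 in control (limma -0.49, SE 0.22, adjusted p = 0.471).

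In the probe sets used, most of the brightest chaperones were higher on the proximal RA array than on its control. The top 10% of measured genes by mean signal (1215 genes) held 16 members. Of these 16, 13 were above the proximal control, with a median log2 difference of 0.28. All 1215 bright genes had a median of 0.24, and 67.6% of them were above 0. With the mean of probe sets several of the 16 fell below 0, among them Dnaja1 (0.55 to -0.31), Hspa4 (0.55 to -0.09) and Hsp90aa1 (0.18 to -0.15). Others, such as Hspa8 (0.38) and Hspe1 (0.43), stayed above it. After quantile normalization, which gives each array the same distribution, 6 of the 16 and 48.1% of the bright genes were above 0. The medians were then -0.06 and -0.02. The direction of the median on that array, for chaperones and for bright genes alike, flipped with the scaling. On the distal RA array the medians were 0.01 for the 16 and 0.06 for all bright genes.

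Other genes of the pathway were read from lists of known partners. Of the heat shock factor genes, Hsf2, Hsf4 and Hsf5 had probe sets with 1 symbol and Hsf1 had none, so Hsf1 was not analysed here. The 3 were below the floor throughout, with signals of 1.17 to 73.0. Of 24 cochaperones measured, limma called 0 for any effect. Bag3, the partner of Hspb8 and a heat shock factor target, had 533.4 and 728.5 in control buds, 624.9 and 892.8 in the dKO, and 289.5 and 420.2 with RA (RA log2 -0.88 and -0.79; limma -0.84, adjusted p = 0.154), lowest on the RA arrays as Hspb8 was. Cryab, a small heat shock protein whose symbol falls outside the rule, had 89.9 and 172.5 in control and 152.1 and 463.5 in dKO, and 31.6 and 54.4, below the floor, in RA (limma dKO 1.09, adjusted p = 0.244). Bag2, which inhibits the ubiquitin ligase that works with HSP70, had 235.1 and 191.2 in control and 94.4 and 116.2 in RA (limma -1.02, adjusted p = 0.151). Serpinh1 (HSP47), the collagen chaperone, had 4375 and 4204 in control and 2468 and 3198 in RA (limma -0.61, adjusted p = 0.17). Others were higher on the proximal RA array than on its control, among them Bag6 (log2 0.91), Fkbp4 (0.73), Trap1 (0.71) and Stip1 (0.63). Distally the RA differences of these genes were 0.01, -0.02, 0.11 and -0.23. The median RA difference of the 24 was 0.03 proximally, with 13 above and 11 below 0, and -0.04 distally, with 10 above and 14 below.

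The 14 cytosolic chaperonin and prefoldin genes were all measured and limma called 0 of them. Their median RA difference was 0.45 proximally and 0.09 distally. Cct7 had 8109 in proximal control and 16470 in proximal RA, and 8032 and 8825 distally. Most of these genes are bright. The top 10% of genes by mean signal had a median of 0.24 on the proximal RA array in the deposited scaling. After quantile normalization it was -0.02, and the list was not read in that scaling. Of 19 ER stress genes limma called 0. Ddit3 (CHOP), a transcription factor of that response, had 221 and 227.8 in control buds, 355.8 and 319 in the dKO, and 808.8 and 389.3 with RA (limma RA 1.32, adjusted p = 0.15). Pdia4, an ER disulfide isomerase, had 95.1 and 97.8 in control and 200.6 and 220.9 in RA (limma 1.13, adjusted p = 0.0726). Lower values on both RA arrays than on their controls were seen for Ern1 (log2 -0.98 and -0.42), Calr (-0.70 and -0.12), Sdf2l1 (-0.47 and -0.66), Pdia6 (-0.46 and -0.53) and Xbp1 (-0.37 and -0.34). The median RA difference of the list was 0.06 proximally, with 11 genes above and 7 below 0. Edem1, at 548.5 in proximal control and 547.3 in proximal RA, rounded to 0 and was counted on neither side. Distally the median was -0.08, with 7 above and 11 below. Of the 8 genes of mitochondrial protein quality control limma called 0, with median RA differences of 0.29 and 0.13.

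Immediate early genes, which rise within minutes of stress and tissue dissociation, were also read. The array held 11, of which 9 passed the floor somewhere, and limma called 0 for any effect. Their summed signal was 2951 to 3364 on the 6 arrays. Fos was below the floor on every array. Atf3 had 116 and 118 in control buds, 194 and 257.9 in the dKO, and 89.0 and 141.5 with RA (limma dKO 0.93, adjusted p = 0.135), highest on the dKO arrays as Hspa1b was. The list was mixed. Its median dKO difference was 0.19 proximally and 0.17 distally, beside 0.02 and 0.01 for all genes. In each part 5 of 8 measured genes were above control in dKO and 3 were below, among them Ier2 (log2 -0.42 proximally and -0.51 distally). Dusp1 had 1023 proximally and 472.5 distally in dKO and 817.1 and 824.6 in control. The bearing of handling on the Hspa1b values was not tested.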

How the data were processed

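Total RNA of proximal and distal forelimb buds was hybridised to Affymetrix arrays, 1 array per group. The deposited values are signal intensity on a linear scale, made by the authors with MAS5 per the submitters' processing notes (no version given). The mean after trimming 2% at each end was 500 on every array, so the arrays had been scaled to one target. No batch, scan date or pooling is stated in the sources used here.

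Of 45101 probe sets, 34945 that were not controls had 1 annotated gene symbol, 932 had several and 9211 had no listed gene. The 64 controls overlap the last class. Probe sets with several symbols named no gene. Signals under an array's median were set to it and log2 was taken. Differences between 2 arrays were counted at 2-fold over genes above the floor on at least 1 of them. limma 3.58.1 in R 4.3.3 fitted condition and part over the 6 arrays (lmFit, eBayes with trend), tested on simulated data, with Benjamini-Hochberg adjustment over the 12147 genes that passed the floor on 1 array or more.

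The genes named are Hspa1b, every member 2-fold different in any comparison or called in limma, the 3 brightest of each HSP and DnaJ family, and the 5 genes closest to Hspa1b. Hspa2, Hspa9 and the binding proteins, among others, were named after their values were seen. The members and gene lists were chosen with earlier results of these data known. Alternatives were no floor, 2 other scalings, the mean of all probe sets, other filters, a 1.5-fold threshold, a prior without trend, and leaving out arrays. Promoter windows came from RefSeq's GRCm38.p6. The summed signal of the neural marker list is not reported here.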

Additional observations from a re-analysis of the deposited data

Results flagged for a closer look

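Dnajb9 differed between the proximal and distal part in opposite directions in 2 conditions. It was 0.60 higher proximally in control (1689 against 1112) and lower proximally in RA, at -1.37 (505.5 against 1303), on the log2 scale. With 1 array per group the difference between the conditions was not tested. The dKO arrays gave -0.50 (1356 against 1916), and Dnajb9 has 1 probe set on the array.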

How the results depend on the processing

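Single genes were followed under alternatives only for limma effects with the lowest unadjusted p and for 2-fold differences of Hspa1b, Dnaja4, Hspa12a, Hspb1, Hspb8, Hsp90b1, Dnajb9 and Dnajc14. Of these values 166 kept their direction and side of the threshold, 37 gained a call, 9 lost one and 14 moved, and none reversed. Smaller differences outside this set did reverse. In proximal RA against control Hspa8 went from 0.47 to -0.23 with quantile normalization, and Dnajc10 from -0.66 to 0.23 with the mean of probe sets. Counts of 2-fold members moved as follows. Proximal against distal in control (1 member) gave 0 with no floor, with quantile normalization and with the mean of probe sets. The mean of probe sets gave 3 in RA proximal against distal, 0 and 1 in dKO proximal and distal, and 2 in proximal RA. Array median scaling gave 1 in distal dKO and 5 in distal RA. A 1.5-fold threshold gave 3, 3 and 8 for position in control, dKO and RA, 6 and 7 for dKO, and 15 and 5 for RA (proximal, distal). With no filter on low values limma called 3, 17 and 8 members for position, dKO and RA. Over all 18193 genes that setting called 324 higher and 444 lower for position, 7544 and 112 for dKO, and 536 and 709 for RA. Of the 17 members, 12 were never above the floor, so their difference is that of the array floors. A prior without trend gave 2 for dKO, beside 257 higher and 12 lower over all 12147 genes. Array median scaling and the filter on all 6 arrays gave 0 for dKO, and quantile normalization and the mean of probe sets gave 0 for dKO and for RA. Over all genes the dKO calls of these 4 settings were 103 higher and 12 lower, 6 and 3, 80 and 7, and 274 and 11. The RA calls of the last 2 settings were 13 and 2, and 30 and 18. Without the 2 control arrays position gave 1 (Dnajb9), beside 136 higher and 198 lower over all 12039 genes. Without the 2 RA arrays position gave 2 and dKO 5 (Dnaja4, Hspa12a, Hspa1b, Hspa2, Hspa4l). Over all 11878 genes that fit called 142 higher and 144 lower for position, and 1000 and 135 for dKO. Leaving out 1 array gave 0 to 2 for position (Dnajb9 without distal control, Hspb1 and Hspb8 without either RA array), 0 to 7 for dKO (0 without either control array, 5 without proximal RA, 7 without distal RA) and 1 to 23 for RA (3 without distal control or either dKO array, 6 without proximal RA, 23 without distal RA). These fits leave 1 residual degree of freedom, and an arm left with 1 array is assumed to vary like the others. With any 1 array left out, the calls over all genes also rose above the main fit for position and for RA. For dKO the calls over all genes rose most with the proximal or the distal RA array left out. The larger member counts with 1 array left out therefore do not set the chaperones apart from all genes. The causes were not tested.

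Array median scaling moved the median of all genes by over 0.1: to -0.10 for position in control, 0.17 for position in RA, -0.17 and -0.35 for proximal and distal dKO, and -0.24 for distal RA. Under it the share of 2-fold genes that were higher went from 49.2% to 38.8%, 41.7% to 57.6%, 91% to 62.6% (distal dKO) and 50.3% to 27.3% (distal RA), and from 41.7% to 55.6% for position in dKO. Quantile normalization took position in RA to 52.1%. The condition term of the limma fit pairs the proximal and distal array of each condition. No replicate block could be fitted because each group has 1 array. Signals near the floor limit Hspa4l, Dnajc22, Dnajb3 and all 12 members never above it.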

Other observations

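Dnajc19, a DnaJ protein of the mitochondrial import motor, shares its 3 probe sets with a pseudogene symbol and so fell outside the rule of 1 symbol. The brightest had signals of 2190 and 2079 in control buds, 2066 and 1967 in the dKO, and 1846 and 1676 with RA. Macrophage markers summed to 365.1 and 433.4 in control buds, 402.4 and 453.7 in the dKO, and 650.9 and 692.5 with RA, with 3 of 5 above the floor. Erythroid markers summed to 32570 to 38950 without RA and to 45720 and 37650 on the proximal and distal RA arrays, with 4 of 5 above the floor. Muscle precursor markers summed to 4000 and 1243 in control buds, 5686 and 2464 in the dKO, and 4094 and 855.3 with RA, and striated muscle markers to 248.8 to 573.8 on the 6 arrays.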
